A study of Mus musculus with 12 samples.

Results

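The genes described here are the 6 that encode the core machinery of microRNA maturation (Drosha, Dgcr8, Xpo5, Dicer1, Tarbp2 and Prkra) and Mir17hg, the non-coding host transcript of the miR-17~92 microRNA cluster. They were taken by symbol, 7 of the 34303 gene symbols in the table. RNA levels were read by sequencing in mouse skin and in cutaneous squamous cell carcinoma (cSCC), a cancer of epidermal keratinocytes. All animals had the C57Bl6 background and were either wild-type (WT) or TAp63-/-, which lack TAp63, the form of the transcription factor p63 with a transactivation domain at its N terminus. The skin groups were WT skin (n = 3) and TAp63-/- skin (n = 3), dorsal skin of untreated mice aged 4 weeks. The tumour groups were WT cSCC (n = 2) and TAp63-/- cSCC (n = 4), from mice aged over 35 weeks after chronic ultraviolet radiation at 2.5 kJ/m2 given 3 times a week. Tumour and skin libraries therefore differ in tissue, age and radiation at once, and these cannot be told apart. Sex, as read from sex-linked genes below, differs as well: all skin libraries were male, and all tumours but TAp63-/- cSCC replicate 1 were female. The labels give each library its own identifier without saying that it is an animal, so the p-values measure the spread between libraries, which may be technical.

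A microRNA is cut out of a longer RNA in steps. In the nucleus the Microprocessor, made of the RNase III enzyme Drosha and its RNA-binding partner Dgcr8, releases a hairpin from the primary transcript. Exportin 5, the product of Xpo5, carries the hairpin to the cytoplasm, where Dicer1 cuts off its loop with the help of the duplex RNA-binding proteins Tarbp2 (TRBP) and Prkra (PACT), and an Argonaute protein takes up the mature strand. Mir17hg is a primary transcript that enters this route: its microRNAs are known for promoting proliferation and survival, and its transcription is known to be driven by Myc.

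The sequences that tie these genes together are the mature microRNAs inside Mir17hg, shown 5′ to 3′ with the seed, bases 2 to 8, in capitals, because the seed sets which messages a microRNA pairs with. They were taken from RefSeq (build GRCm38.p6).
miR-17-5p: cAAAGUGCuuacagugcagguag
miR-20a-5p: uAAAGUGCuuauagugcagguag
miR-18a-5p: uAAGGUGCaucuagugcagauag
miR-19a-3p: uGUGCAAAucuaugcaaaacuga
miR-19b-3p: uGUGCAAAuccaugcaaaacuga
miR-92a-3p: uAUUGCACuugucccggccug
The 6 microRNAs carry 4 seeds. AAAGUGC is shared by miR-17-5p and miR-20a-5p, AAGGUGC belongs to miR-18a-5p and differs from it by a single letter, GUGCAAA is shared by both miR-19 microRNAs, and AUUGCAC belongs to miR-92a-3p. A related cluster inside the gene Mcm7 repeats 2 of these seeds.
miR-106b-5p: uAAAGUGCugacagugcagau
miR-93-5p: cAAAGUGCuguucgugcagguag
miR-25-3p: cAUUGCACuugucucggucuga
Here miR-106b-5p and miR-93-5p have the seed AAAGUGC, and miR-25-3p has AUUGCAC. What Drosha and Dicer1 act on is shown by the RefSeq hairpin of miR-17, with the strands that remain after both cuts, miR-17-5p and miR-17-3p, in capitals.
Mir17: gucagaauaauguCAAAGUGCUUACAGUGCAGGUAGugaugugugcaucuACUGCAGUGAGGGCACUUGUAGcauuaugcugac
The 84-base hairpin holds miR-17-5p at bases 14 to 36 and miR-17-3p at bases 51 to 72.

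In the deposited table Mir17hg has the identifier ENSMUSG00000089726 and lies on chromosome 14 (mm10, 115042879 to 115046727). GENCODE M21 gives it as a lincRNA on the plus strand with 2 exons, of 79 and 3457 bases. All 6 hairpins lie in exon 2. They start with Mir17 at 792 bases from the start of the host and end with Mir92-1 at 1627 bases. The hairpins have entries of their own in the table, and each of the 6 was listed at 0 in all 12 libraries. The same held for 1609 of the 1631 microRNA entries, so the Mir17hg values below describe the host transcript and no mature microRNA was measured.

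**Figure D1:**
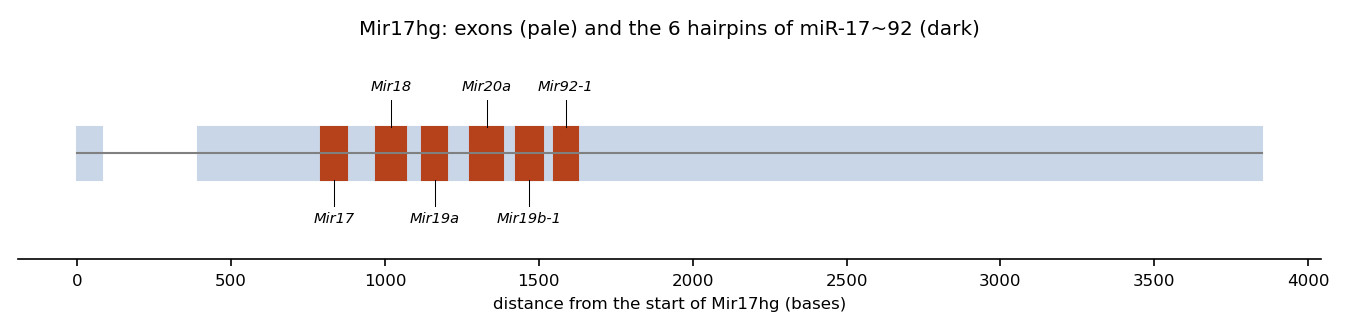
Map of Mir17hg to scale, with distance from the start of the gene in bases on the horizontal axis, exons as pale boxes and hairpins as dark boxes. All 6 hairpins sit together in exon 2, between 792 and 1627 bases.

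Values are FPKM, fragment counts scaled to transcript length and library size, and all 12 columns share 1 distribution, so read depth per library is unknown and no counting error can be given. Between 13019 and 13073 symbols reached 1 FPKM per library. Trp63, the targeted gene, was at 84.5 to 119 FPKM in skin and 97.3 to 258 FPKM in tumours. That value sums the isoforms with and without the transactivation domain, so it checks nothing about the deletion. The 5 keratinocyte markers (Krt5, Krt14, Krt1, Krt10 and Dsg3) were present in every library, with a mean log2(FPKM + 1) of 9.20 to 9.58 in skin and 9.69 to 10.99 in tumours. Of the 5, 3 were higher in every tumour than in any skin library. Skeletal muscle markers moved the other way: the mean over 4 markers was 10.34 to 11.20 in skin and 3.77 to 7.14 in tumours, and all 4 were lower in every tumour than in any skin library. The means of adipocyte markers (over 3 markers 4.39 to 7.27 in skin and 0.30 to 3.92 in tumours) and fibroblast markers (over 5 markers 7.65 to 9.16 and 5.90 to 7.45) also separated the tissues. All 3 adipocyte markers but only 2 of the 5 fibroblast markers were lower in every tumour than in any skin library. The part of these markers in the tumour-skin differences was not tested. By Xist and Y-linked genes, the 6 skin libraries and TAp63-/- cSCC replicate 1 were male and the other 5 tumours were female. In bulk tissue, fewer cells of a type and less RNA per cell cannot be told apart.

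All 6 processing genes were expressed in every library, at 4.48 FPKM or more, while Mir17hg was below 1 FPKM in all skin and above 3 FPKM in all tumours. Averaged over the 12 libraries, the order of levels per length of transcript was Tarbp2 (18.6 FPKM), Drosha (12.3 FPKM), Xpo5 (11.7 FPKM), Dicer1 (7.03 FPKM), Prkra (6.80 FPKM), Dgcr8 (6.56 FPKM) and Mir17hg (2.47 FPKM). Drosha, Xpo5 and Tarbp2 overlapped in their ranges over libraries, as did Dicer1, Prkra and Dgcr8. These sets overlapped with each other too, with Drosha down to 7.60 FPKM and Prkra up to 10.85 FPKM. Neighbours in this order are thus not separated among the 6 processing genes. Dicer1 varied least, with a highest value 1.53 times the lowest. Mir17hg varied most, with a ratio of 26.5.

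**Figure D2:**
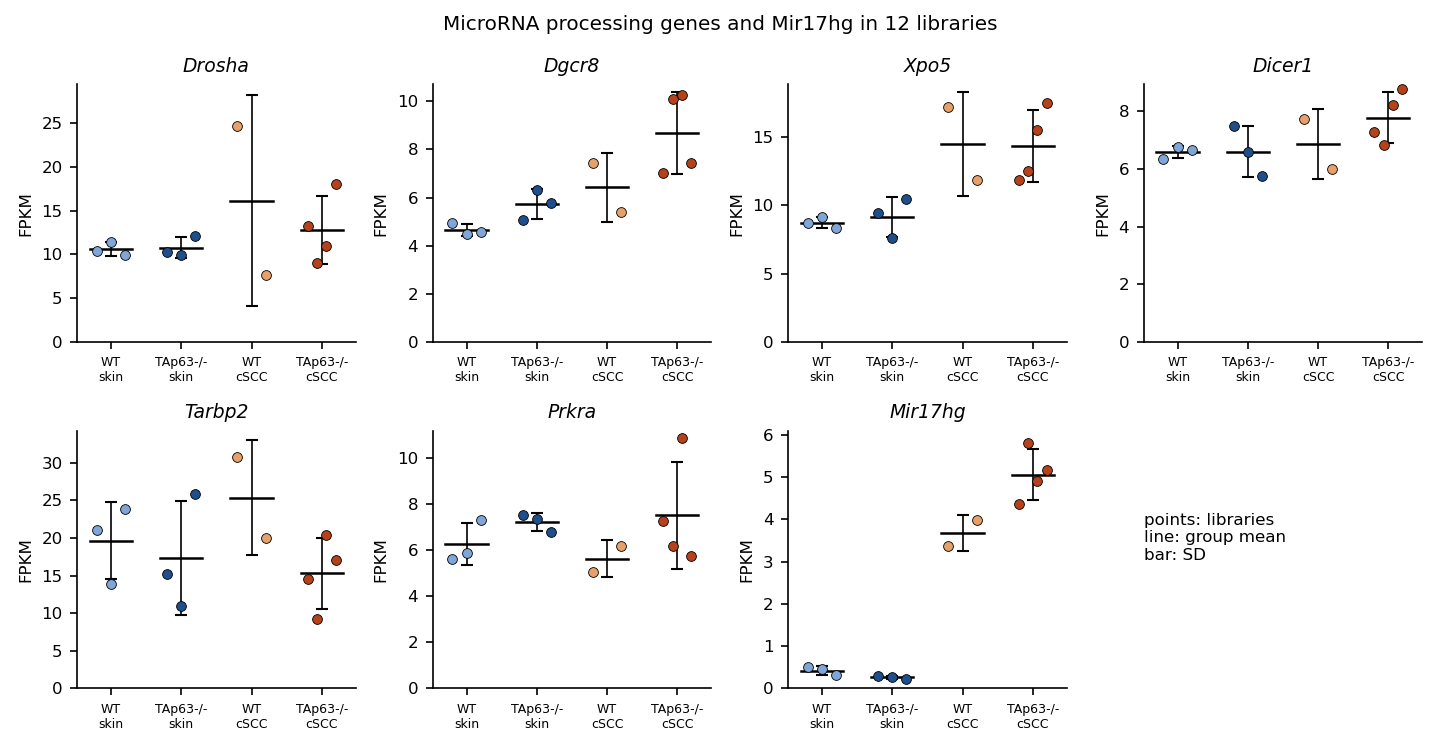
FPKM of each gene (vertical axis, from 0) in the 12 libraries, by group. Points are libraries, horizontal lines are group means and bars are SD. Mir17hg separates tumours (3.37 to 5.82) from skin (0.22 to 0.50), Xpo5 does so by less, and Dicer1 stays between 5.74 and 8.77 in all libraries.

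A gene was called changed at an adjusted p below 0.05 (limma on log2(FPKM + 1), Benjamini-Hochberg over 14752 genes). With both genotypes averaged, 3 of the 7 genes were higher in cSCC than in skin (Mir17hg, Xpo5 and Dgcr8) and 0 were lower. Among all tested genes 37.5% were called in this comparison and 19.1% were called higher. In WT alone 1 gene was called higher in tumours (Mir17hg), against a background of 11.4% called and 4.66% called higher. In TAp63-/- alone 2 were (Mir17hg and Xpo5), against 27.2% called and 13% called higher. Mir17hg passed the filter on low values only through its 6 tumour libraries, so its call is partly built into the filter, while the 6 processing genes passed it in all 12 libraries. Both genotypes gave the median of the 7 genes above 0 (0.36 in WT and 0.21 in TAp63-/-, on the log2 scale), against medians of 0.04 and 0.10 over all tested genes. These medians are the values of Drosha in WT and of Dicer1 in TAp63-/-, neither of them called. They are a description and show no joint rise of the 7 genes. The comparison averaged over genotypes uses the same libraries as the pair within genotypes and is no separate support for them.

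Mir17hg was found at 0.50, 0.453 and 0.304 FPKM in WT skin and at 0.285, 0.277 and 0.22 FPKM in TAp63-/- skin. In tumours it was at 3.37 and 3.99 FPKM in WT cSCC and at 4.36, 5.82, 4.91 and 5.16 FPKM in TAp63-/- cSCC. Every tumour was above every skin library, and the lowest tumour exceeded the highest skin library several times over. The group means were 0.419 ± 0.103 (SD, n = 3) in WT skin, 0.261 ± 0.0354 (SD, n = 3) in TAp63-/- skin, 3.68 ± 0.436 (SD, n = 2) in WT cSCC and 5.06 ± 0.603 (SD, n = 4) in TAp63-/- cSCC. Tumours were thus 8.78 times skin in WT and 19.4 times skin in TAp63-/- by the ratio of means. On the log2(FPKM + 1) scale, which understates the change of low values, Mir17hg rose by 1.72 in WT (SE 0.19, limma adjusted p = 0.000562) and by 2.26 in TAp63-/- (SE 0.16, limma adjusted p = 9.55e-06). With a pseudocount of 0.1 in place of 1, the same differences were 2.88 and 3.84.

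For Mir17hg the only male tumour, TAp63-/- cSCC replicate 1, had 4.36 FPKM, and the 6 male skin libraries had 0.22 to 0.50 FPKM. In WT all skin libraries were male and both tumours female, so sex and tissue cannot be told apart there. A sex covariate therefore rests on that 1 male tumour. With sex as a covariate the difference averaged over genotypes was 1.79 (limma adjusted p = 0.00272), against 1.99 without it (SE 0.12, adjusted p = 2.11e-06). With the muscle marker level as a covariate it was 2.14, with a larger SE of 0.41 and an adjusted p of 0.146. Muscle markers separate tumours from skin with no overlap, so they and tissue cannot be told apart in this design. Leukocyte markers overlapped between tissues, with 7 markers summing to 229 to 449 FPKM in skin and 112 to 831 FPKM in tumours. The tumour with the highest leukocyte sum, TAp63-/- cSCC replicate 2, also had the highest Mir17hg, 5.82 FPKM, and the tumour with the lowest, TAp63-/- cSCC replicate 3, had 4.91 FPKM. The mean over 12 proliferation genes also overlapped, at 2.91 to 4.57 in skin and 4.17 to 5.59 in tumours. WT cSCC replicate 1 had the highest proliferation mean of any library, 5.59, and the lowest Mir17hg of any tumour, 3.37 FPKM. The part of these cell and cycle markers in the level of Mir17hg was not tested.

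Of the Microprocessor pair, Dgcr8 was called higher in tumours and Drosha was not. Drosha, the enzyme, was at 10.4, 11.5 and 9.95 FPKM in WT skin and at 10.3, 9.92 and 12.1 FPKM in TAp63-/- skin, a narrow range. In tumours it spread widely, with 24.7 and 7.60 FPKM in the WT pair and 13.3, 8.99, 10.96 and 18.1 FPKM in TAp63-/- cSCC. The highest and the lowest of all 12 values thus both came from WT cSCC. Averaged over genotypes the difference from skin was 0.28 on the log2 scale (95% interval -0.29 to 0.84, limma adjusted p = 0.424). Without WT cSCC replicate 2 it was 0.67 and was called (adjusted p = 0.0216), and without WT cSCC replicate 1 it was -0.12, so the sign for Drosha rests on 1 library. WT cSCC replicate 2 also had hair shaft and sheath markers at a mean of 6.83, against 0.27 in WT cSCC replicate 1, and whether that bears on Drosha was not tested.

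Dgcr8, the RNA-binding subunit, was at 4.93, 4.48 and 4.56 FPKM in WT skin and at 5.08, 6.32 and 5.76 FPKM in TAp63-/- skin. It was at 7.43 and 5.41 FPKM in WT cSCC and at 7.03, 10.1, 10.3 and 7.43 FPKM in TAp63-/- cSCC. The tumours were above all skin libraries with the exception of WT cSCC replicate 2, which lay within the TAp63-/- skin range. Dgcr8 rose by 0.45 on the log2 scale in cSCC averaged over genotypes (SE 0.14, limma adjusted p = 0.0275), 1.53 times by the ratio of means. It was not called within WT (0.38, adjusted p = 0.278) or within TAp63-/- (0.52, adjusted p = 0.0539). In TAp63-/- it was called without WT cSCC replicate 1 or 2 or TAp63-/- cSCC replicate 1 (adjusted p 0.0468, 0.0468 and 0.0346) and with a filter on the mean of at least 1 FPKM (adjusted p = 0.0493). Leaving out WT cSCC replicate 1, WT skin replicate 2 or 3, or TAp63-/- skin replicate 1 ended the call (adjusted p 0.127, 0.0639, 0.0614 and 0.064), and so did the sex covariate (0.15, adjusted p = 0.752) and the muscle covariate, which turned the sign (-0.12, adjusted p = 0.933). The male tumour had 7.03 FPKM, above the 6.32 FPKM of the highest male skin library. The Dgcr8 entry (chromosome 16, 18253948 to 18289249, minus strand by GENCODE M21) shares 825 bases with the entry of Trmt2a, which was at 4.17 to 12.4 FPKM. Whether the counting used strand is not given in the sources used here, so reads in those bases cannot be told apart.

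The balance of the pair shifted with the library: the ratio of Drosha to Dgcr8 FPKM was 1.57 to 2.56 in skin and 0.892 to 3.32 in tumours. The highest ratio came from WT cSCC replicate 1 and the lowest from TAp63-/- cSCC replicate 2.

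Xpo5, the exportin, was the processing gene whose tumours and skin did not overlap. It was at 8.69, 9.18 and 8.38 FPKM in WT skin and at 9.45, 7.59 and 10.5 FPKM in TAp63-/- skin. In tumours it was at 17.2 and 11.8 FPKM in WT and at 11.9, 12.5, 15.5 and 17.6 FPKM in TAp63-/-. All 6 tumours were above all 6 skin libraries for Xpo5 and Mir17hg, 2 of the 7 genes, and 21.8% of all tested genes showed no overlap between tissues in either direction. Mir17hg passed the filter on low values only through its tumours, so its lack of overlap is partly built into the filter. Averaged over genotypes Xpo5 rose by 0.62 on the log2 scale (SE 0.15, limma adjusted p = 0.00778), 1.61 times by the ratio of means. The rise was 0.59 in TAp63-/- (SE 0.19, adjusted p = 0.041), and in WT the difference was 0.65 (SE 0.23, adjusted p = 0.0896). In the TAp63-/- comparison 8 of the 12 fits that leave out 1 library lost the call, with changes of 0.47 to 0.68. Averaged over genotypes the call was kept in all 12, with changes of 0.49 to 0.75. The muscle covariate ended it and turned the sign (-0.37, adjusted p = 0.733). With the sex covariate the difference was 0.34 (adjusted p = 0.474), and the male tumour had 11.9 FPKM against at most 10.5 FPKM in male skin.

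The promoters of Xpo5 and Dgcr8, the processing genes called higher in tumours, are shown as 300-base windows around the RefSeq start (GRCm38.p6). Capitals mark the GC box GGGCGG, searched on both strands and so also read as CCGCCC.
Xpo5, chr17:46202561-46202860, plus strand: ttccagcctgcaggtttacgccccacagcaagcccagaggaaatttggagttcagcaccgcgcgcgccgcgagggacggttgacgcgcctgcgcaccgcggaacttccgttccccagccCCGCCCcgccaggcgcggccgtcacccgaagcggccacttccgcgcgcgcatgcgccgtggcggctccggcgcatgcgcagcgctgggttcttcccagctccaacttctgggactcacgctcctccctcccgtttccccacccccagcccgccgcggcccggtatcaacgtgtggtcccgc
Dgcr8, chr16:18289119-18289418, minus strand: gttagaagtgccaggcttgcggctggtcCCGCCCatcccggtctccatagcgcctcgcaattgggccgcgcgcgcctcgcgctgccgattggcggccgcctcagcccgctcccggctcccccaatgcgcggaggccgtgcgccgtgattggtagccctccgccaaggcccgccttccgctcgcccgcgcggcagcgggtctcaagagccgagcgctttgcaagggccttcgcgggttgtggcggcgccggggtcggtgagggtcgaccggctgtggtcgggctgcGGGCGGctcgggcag
The GC box occurred once in the Xpo5 window and at 2 places in the Dgcr8 window. It was found in 35.7% of the 32851 RefSeq promoter windows and in 5 of the 7 windows of these genes. The E-box CACGTG, a palindrome that Myc proteins can bind, was in 7.15% of all windows and in 0 of the 7. RefSeq's window for Mir17hg (chromosome 14, 115044140 to 115044439) lies among the hairpins, far from the start that the table uses, so it does not describe that promoter.

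Dicer1, the cytoplasmic RNase III, was at 6.34, 6.76 and 6.64 FPKM in WT skin and at 7.49, 6.58 and 5.74 FPKM in TAp63-/- skin. It was at 7.73 and 5.997 FPKM in WT cSCC and at 7.27, 6.83, 8.21 and 8.77 FPKM in TAp63-/- cSCC. The tissues overlapped, and the difference averaged over genotypes was 0.13 on the log2 scale (95% interval -0.14 to 0.39, limma adjusted p = 0.444). The ratio of Xpo5 to Dicer1 FPKM was 1.15 to 1.83 in skin and 1.63 to 2.23 in tumours. Dicer1 has been reported as a direct transcriptional target of TAp63, so both genotype comparisons are given for it here. In TAp63-/- against WT skin the difference was 0.00 on the log2 scale (-0.002, 95% interval -0.32 to 0.32, limma adjusted p = 1). In TAp63-/- against WT cSCC it was 0.16 (95% interval -0.44 to 0.76, adjusted p = 1). At 3 against 3 skin libraries the interval holds changes of up to 0.32 in either direction.

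Tarbp2, the TRBP partner of Dicer1, had the highest mean of the 7 genes and spread widely within every group. It was at 21.1, 13.95 and 23.9 FPKM in WT skin, at 15.2, 11.01 and 25.8 FPKM in TAp63-/- skin, at 30.8 and 19.96 FPKM in WT cSCC, and at 14.5, 9.22, 20.4 and 17.1 FPKM in TAp63-/- cSCC. The tumour groups overlapped in that TAp63-/- cSCC replicate 3 lay above WT cSCC replicate 2. The difference between tumour and skin averaged over genotypes was 0.11 (95% interval -0.46 to 0.67, limma adjusted p = 0.772). Prkra, the PACT partner, was at 5.61, 5.87 and 7.30 FPKM in WT skin, at 7.49, 7.35 and 6.77 FPKM in TAp63-/- skin, at 5.04 and 6.17 FPKM in WT cSCC, and at 7.25, 6.18, 10.9 and 5.72 FPKM in TAp63-/- cSCC. Its groups overlapped in every comparison, and its tumour-skin difference was -0.06 (95% interval -0.41 to 0.29, adjusted p = 0.80). The ratio of Tarbp2 to Prkra FPKM was 1.497 to 3.82 in skin and 1.49 to 6.11 in tumours, the highest in WT cSCC replicate 1.

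None of the 7 genes differed between genotypes past the threshold in either tissue. In skin 0 of 7 were called by limma, 0 had an unadjusted p below 0.05, and 0.0203% of all tested genes were called. Dgcr8 was higher in every TAp63-/- skin library than in any WT skin library (0.25 on the log2 scale, 95% interval -0.06 to 0.55, adjusted p = 0.923). Mir17hg was lower in every TAp63-/- skin library (-0.17, 95% interval -0.37 to 0.03, adjusted p = 0.923). Those are 2 of the 7 genes without overlap in skin, and 10.6% of all tested genes had none. Between the tumours 0 of 7 were called, 0 had an unadjusted p below 0.05, and 0% of all tested genes were called. Mir17hg was the member whose tumour groups did not overlap, 1 of 7 against 9.85% of all tested genes, and it was higher in TAp63-/- cSCC by 0.37 (95% interval -0.23 to 0.97, adjusted p = 1). Tarbp2 had the widest difference between tumours, -0.71 (95% interval -1.57 to 0.15, adjusted p = 1). With 2 WT tumours these intervals are wide.

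**Figure D3:**
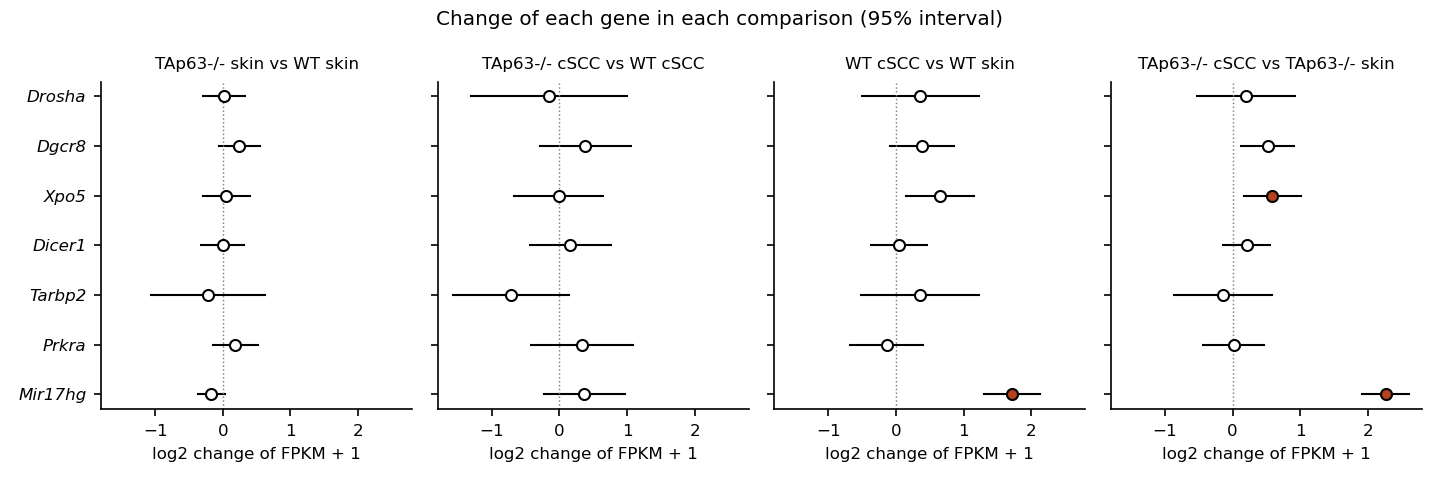
Difference of each gene on the log2(FPKM + 1) scale (horizontal axis) in 4 comparisons, with 95% intervals, where filled points have a limma adjusted p below 0.05. Both genotype comparisons hold open points only, and Mir17hg is filled in both tumour-skin comparisons at 1.72 and 2.26.

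Whether the difference between tumour and skin itself depends on genotype was tested as an interaction. Of the 7 genes 0 were called by limma, against 0.0271% of all tested genes, and 1 had an unadjusted p below 0.05, as had 444 of all 14752 tested genes. That gene was Mir17hg, whose change was larger in TAp63-/- by 0.54 on the log2 scale (SE 0.25, adjusted p = 0.9998). TAp63-/- was the lower genotype in skin and the higher in tumours, in every library. Neither difference was called, and all skin levels were low, at 0.22 to 0.50 FPKM. For Dicer1 the interaction was 0.16 (95% interval -0.37 to 0.70) and for Xpo5 it was -0.06 (95% interval -0.71 to 0.59).

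Genes that act around the core enzymes were taken from lists of known function, and each list is read against the median of all tested genes, which was 0.07 on the log2 scale in tumours against skin averaged over genotypes, and against the 37.5% of all tested genes called there and the 19.1% called higher. In that comparison the nuclear cofactors of processing had 6 of 16 called higher and 0 lower, with a median of 0.25. Srrt (ARS2), which links the cap-binding complex to primary microRNAs, was at 9.86 to 13.1 FPKM in skin and 13.3 to 23.2 FPKM in tumours and rose by 0.60 (limma adjusted p = 0.00909). Ncbp1, a cap-binding subunit, rose by 0.57 (adjusted p = 0.0218), Khsrp, which binds hairpin loops, by 0.54 (adjusted p = 0.0164), and Adar, an editor of duplex RNA, by 0.72 (adjusted p = 0.0263). Ran, the GTPase that loads exportin 5, rose by 1.25 in TAp63-/- tumours (adjusted p = 0.0465). Erh, which binds Dgcr8, rose by 0.86 in the same comparison (adjusted p = 0.0482). In TAp63-/- 3 of the 16 were called and in WT 0 of 16 by limma, with 3 at an unadjusted p below 0.05. Among all tested genes 27.2% were called in TAp63-/- and 11.4% in WT, where 4149 of 14752 had an unadjusted p below 0.05.

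The Argonautes and their GW182 partners, which carry out silencing, moved in both directions: 2 of 7 were called higher and 3 lower, with a median of -0.01. Of all tested genes 37.5% were called averaged over genotypes and 19.1% were called higher. Ago1 was at 13.7 to 19.95 FPKM in skin and 7.48 to 12.9 FPKM in tumours, without overlap, and fell by 0.72 on the log2 scale (SE 0.13, limma adjusted p = 0.00152). It fell in WT (-0.87, adjusted p = 0.0175) and in TAp63-/- (-0.57, adjusted p = 0.0258). Ago2, the Argonaute that can cleave its target, was at 13.7 to 18.5 FPKM in skin and 23.6 to 46.3 FPKM in tumours and rose by 0.75 (adjusted p = 0.00497). That value sums a coding entry and an antisense entry under 1 symbol. The coding entry alone was at 9.29 to 12.2 FPKM in skin and 11.2 to 26.5 FPKM in tumours, with a difference of 0.49 that did not pass (adjusted p = 0.071). Tnrc6a, a GW182 protein, rose by 0.46 (adjusted p = 0.00937), while its relative Tnrc6c fell by 0.47 (adjusted p = 0.0117) and Ago4 fell by 0.78 from a low level (adjusted p = 0.0192).

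Downstream of the Argonautes, the deadenylation and decapping genes had 6 of 16 called higher and 1 lower, with a median of 0.43. Averaged over genotypes, 37.5% of all tested genes were called and 19.1% were called higher. Pabpc1, the poly(A)-binding protein, was at 221 to 359 FPKM in skin and 378 to 880 FPKM in tumours and rose by 1.12 (limma adjusted p = 0.00439). Dcp1a and Edc4, which act in decapping, rose by 0.57 and 0.47 (adjusted p = 0.00816 and 0.0214), Cnot9, a deadenylase subunit, rose by 0.56 (adjusted p = 0.0168), and the helicase Ddx6 fell by 0.45 (adjusted p = 0.0454). Of the tailing and turnover genes 4 of the 12 tested were called higher and 0 lower, with a median of 0.28. Xrn2, a nuclear exonuclease, was at 15.6 to 21.2 FPKM in skin and 24.7 to 50.0 FPKM in tumours and rose by 0.84 (adjusted p = 0.00389). The exonuclease Eri1 rose by 0.63 (adjusted p = 0.00882), the RNA-degrading enzyme Pnpt1 by 0.73 (adjusted p = 0.0134) and the poly(A) polymerase Tent2 by 0.80 (adjusted p = 0.0175). In WT alone 0 genes of either list were called by limma, with 2 of 16 and 3 of 12 at an unadjusted p below 0.05, and in TAp63-/- alone 5 and 4 were called higher. Among all tested genes 4.66% were called higher in WT and 13% in TAp63-/-, and 4149 of 14752 had an unadjusted p below 0.05 in WT. The list counts are thus no result about genotype. Lin28a and Lin28b, which block maturation of let-7 microRNAs, were below the filter and were not tested, and Lin28b reached 1.89 FPKM in WT cSCC replicate 1 alone.

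**Figure D4:**
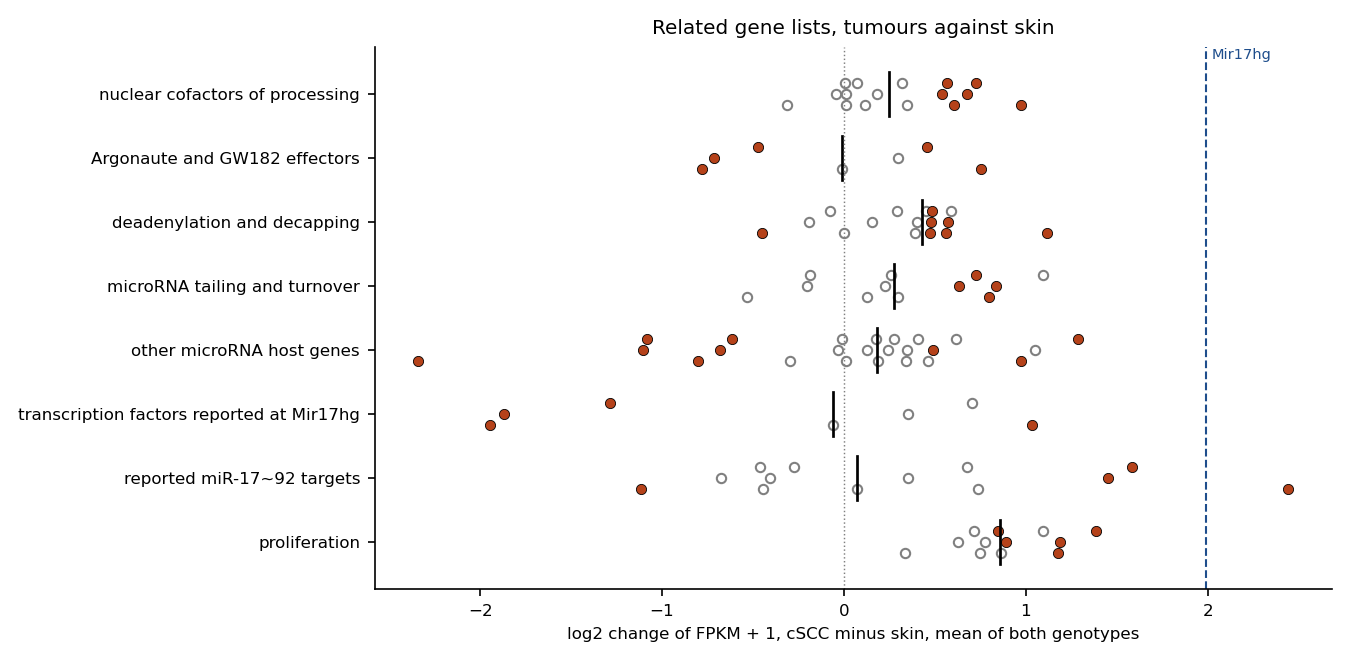
Difference between tumours and skin on the log2(FPKM + 1) scale (horizontal axis, mean of both genotypes) for the tested genes of 8 lists (rows). Points are genes, filled where the limma adjusted p is below 0.05, black ticks are list medians, and the dashed line is Mir17hg at 1.99. Deadenylation and tailing genes called changed lie mostly above 0, and other host genes lie on both sides.

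Among 24 tested hosts of other microRNAs, 3 were called higher and 6 lower, with a median of 0.18. These 9 calls are at the share of all tested genes, 37.5%, and are no result about hosts as a group. Mest (host of Mir335) rose by 1.29 (limma adjusted p = 0.00205), Meg3 (Mir770) rose by 0.97 (adjusted p = 0.00804), and Dnm3os (Mir214) was also called higher. Ctdsp2 (Mir26a-2) fell by 1.08 (adjusted p = 0.00234), Ctdsp1 (Mir26b) by 0.61 (adjusted p = 0.00589) and Pank3 (Mir103-1) by 0.68 (adjusted p = 0.00683). Dnm3os reached 1 FPKM in 3 libraries, all tumours, and Arpp21 (Mir128-2), called lower, in 5 libraries, all skin, so each passed the filter only where it was high and its call is partly built into the filter. Dnm3os was at 0.345 to 0.723 FPKM in skin and 0.640 to 1.77 FPKM in tumours, and Arpp21 at 0.942 to 2.77 FPKM in skin and at most 0.504 FPKM in tumours. Pank1 (Mir107) fell by 1.70 in TAp63-/- (adjusted p = 0.00119), and in WT its difference was 0.09 (adjusted p = 0.888). The WT tumours lay at 10.7 and 26.6 FPKM, below and above the skin range of 13.7 to 26.1 FPKM. Their mean thus does not show that Pank1 was unchanged in WT, and its interaction was not called. In WT alone 0 hosts were called higher and 1 lower, and in TAp63-/- alone 1 and 4, against 11.4% and 27.2% of all tested genes called in either direction. Mcm7, the replication gene that hosts the related cluster printed above, was at 16.1 to 33.5 FPKM in skin and 23.1 to 61.6 FPKM in tumours and was not called.

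Of the 7 transcription factors reported at Mir17hg, 1 was called higher and 3 lower averaged over genotypes. The shares of all tested genes were 37.5% called and 19.1% called higher. Myc was at 19.4 to 26.7 FPKM in skin, and at 56.5 and 43.3 FPKM in WT cSCC and 98.8, 29.7, 27.1 and 72.4 FPKM in TAp63-/- cSCC. All 6 tumours were above all skin, and Myc rose by 1.03 (SE 0.31, limma adjusted p = 0.0222). Its order among the TAp63-/- tumours was not that of Mir17hg, which was highest in replicate 2, where Myc was at 29.7 FPKM. Any relation between the levels of Myc and Mir17hg was not tested. The relatives Mycl and Mycn fell by 1.95 and 1.87 (adjusted p = 0.000909 and 0.00348), and E2f2 fell by 1.29 (adjusted p = 0.0102). For E2f2 the tissues overlapped, with 5.11 to 11.3 FPKM in skin and 1.19 to 9.14 FPKM in tumours, the highest in WT cSCC replicate 2. Mycn was at 0.19 to 1.54 FPKM in tumours and 5.28 to 8.52 FPKM in WT skin, with TAp63-/- skin at 0.624, 5.73 and 7.63 FPKM.

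Genes reported as targets of the cluster are commonly repressed by it, and 3 of the 13 listed here were called higher in tumours and 1 lower, with a median of 0.07. That is near the shares of all tested genes, 37.5% called and 19.1% called higher. Hif1a, the hypoxia factor, was at 28.2 to 39.8 FPKM in skin and 78.8 to 462 FPKM in tumours and rose by 2.44 (limma adjusted p = 0.000693). Itga5, a fibronectin receptor subunit, and Thbs1, an inhibitor of vessel growth, rose by 1.45 and 1.59 (adjusted p = 0.000581 and 0.00698). Zbtb4, a transcriptional repressor, fell by 1.12 (adjusted p = 0.00938). Bcl2l11, which encodes the death factor Bim, was at 3.87 to 7.80 FPKM in skin and 5.28 to 17.8 FPKM in tumours and was not called. Of 12 proliferation genes 5 were called higher and 0 lower, with a median of 0.86, and Birc5 (survivin) rose by 1.38 (adjusted p = 0.0104), the mitotic kinase Plk1 by 1.19 (adjusted p = 0.0195) and Rrm2, a subunit of ribonucleotide reductase, by 1.18 (adjusted p = 0.0202). In both genotype comparisons and in the interaction, 0 genes of these 8 lists were called by limma, and between 0 and 3 of each list had an unadjusted p below 0.05. Of all 14752 tested genes, 738 in skin, 419 in tumours and 444 in the interaction had one.

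The counts of these lists changed when WT cSCC replicate 1 was left out. Without it the genes called higher averaged over genotypes went from 6 to 1 for nuclear cofactors, from 6 to 2 for deadenylation and decapping, from 5 to 0 for proliferation, from 4 to 3 for tailing and turnover, and stayed at 3 for the targets and at 3 for the other hosts, while Myc lost its call and Argonautes and GW182 partners called lower went from 3 to 1. With sex as a covariate 0 nuclear cofactors, 0 Argonautes and GW182 partners and 0 proliferation genes were called, 2 deadenylation and decapping genes were called higher and 1 lower, and 2 tailing and turnover genes were called higher. With the muscle covariate 0 genes of the 8 lists were called. The share of all tested genes called in these fits is not given here, so these shifts are no result about the lists. Their cause was not tested.

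**Figure D5:**
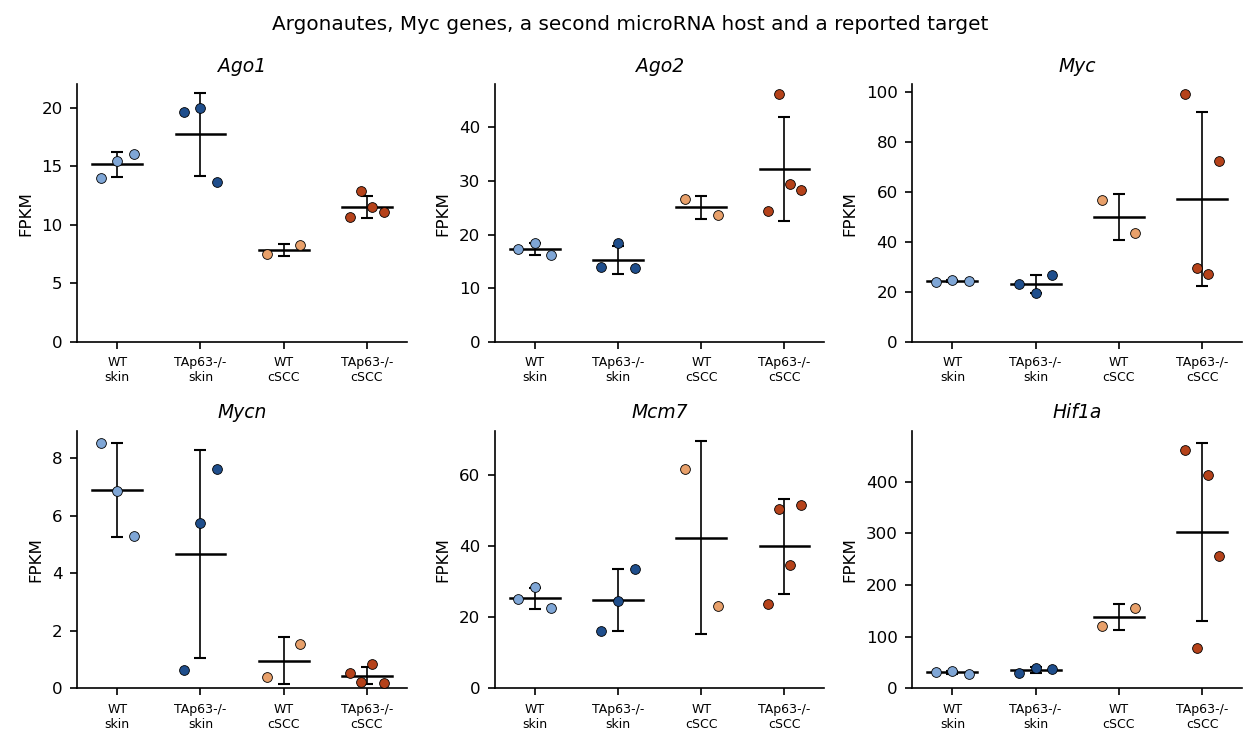
FPKM (vertical axis, from 0) of 6 related genes in the 12 libraries by group, with points for libraries, lines for means and bars for SD. Ago1 lies lower in all tumours than in any skin library and Hif1a higher, while Mcm7 overlaps between tissues. Ago2 is the sum of its coding and antisense entries.

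The genes whose profile over the 12 libraries was most like that of each member are given as a description, by Pearson's r of log2(FPKM + 1) among about 9110 genes with a mean of at least 5 FPKM. Xpo5 was most like Rbm28 (0.98), Ints1 (0.97) and Heatr1 (0.97). Dgcr8 was most like Pcgf3 (0.99), Med21 (0.97) and Atpbd4 (0.96), and Drosha like Nsmce2 (0.91), Fermt1 (0.90) and Chtf8 (0.90). The likeness of Fermt1 to Drosha was 0.99 within the 6 tumours and -0.13 within the 6 skin libraries. Dicer1 was most like Card10 (0.93), Aff4 (0.92) and Gramd2 (0.91), Tarbp2 like Cox6a1 (0.88), Psmb7 (0.86) and Dtd1 (0.86), and Prkra like Sri (0.94), Tm2d1 (0.90) and Tmem59 (0.88). For the pairs of these 6 genes other than Drosha and Fermt1, r was 0.88 or more within tumours and 0.67 or more within skin. For Mir17hg, whose libraries fall into separate skin and tumour clusters, the 3 were Stfa2, Mapk6 and Ifi202b. Their r was 0.75, -0.01 and 0.03 within the 6 tumours and 0.37, -0.54 and 0.04 within the 6 skin libraries, and no r over all 12 is given for them because it would mostly measure the step between tissues. Among the members, Xpo5 and Dgcr8 had an r of 0.70, Xpo5 and Dicer1 of 0.67, and Drosha and Dgcr8, the Microprocessor pair, of 0.23, all over the 12 libraries. Xpo5 did not overlap between tissues, so its r values also measure the step between tissues. No r between members within a tissue is given.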

How the data were processed

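Total RNA of skin and tumours was extracted with miRVANA and made into libraries with a TruSeq RNA kit, per the labels. Reads were aligned to mm10 with TopHat2 2.0 and quantified with Cufflinks 2.0, per the submitters' processing notes. No source names the unit of the deposited table, and its values are read as FPKM because Cufflinks reports that unit. In each library at least 99.98% of sorted values of 1 FPKM or more lay within 1% of the common value, so quantile normalization by the authors was inferred, although no header or note records it.

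Entries sharing a symbol were summed. The 14752 genes that reached 1 FPKM in 2 or more of the 12 libraries were tested, two-sided, on log2(FPKM + 1). The test was limma 3.58.1 (R 4.3.3), moderated with a trend on mean level, and p-values had Benjamini-Hochberg adjustment. Every adjusted p is limma's. Genotype comparisons used the 6 libraries of a tissue, and tumour-skin, averaged and interaction contrasts all 12. The fit was tested on simulated data. The alternatives were the pseudocount, the filter, rescaling, array weights, the libraries fitted, sex and muscle covariates, 1 entry per symbol and leaving out each library.

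The members and lists were chosen with earlier results of these data known. Named genes are the 7 members, up to 4 called genes with the smallest p per list, direction and comparison, the 3 genes most alike to each member, and Trp63. Mcm7, Bcl2l11, Lin28a and Lin28b were named after their values were seen.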

Additional observations from a re-analysis of the deposited data

Results flagged for a closer look

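Of 51 checks for a library far from the others among the 4 TAp63-/- tumours, 1 was met, and chance meets about 1 in 20. It concerned Cnot9 (listed as Rqcd1), a subunit of the deadenylase complex, which was at 29.2 FPKM in TAp63-/- cSCC replicate 2 and at 41.5 to 42.7 FPKM in the other 3.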

How the results depend on the processing

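The 12 fits that leave out 1 library (6 for genotype comparisons, where the tissue has 6) called 0 members in skin, 0 between tumours, 0 for the interaction, 1 to 2 in WT tumours against skin, 1 to 3 in TAp63-/- tumours against skin and 2 to 4 averaged over genotypes. Mir17hg kept its tumour-skin calls in all of them. In TAp63-/- the count of 2 became 1 with no filter, with rescaling by median of ratios, with the tissue pair fitted alone and with the sex covariate. The sex covariate also left 1 averaged over genotypes. The muscle covariate left 0 in WT, TAp63-/- and the average. The share of all tested genes called in each of these fits is not given here, so the shifts in count are no result about the members.

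With the muscle covariate these tumour-skin differences turned negative, while those of Mir17hg stayed positive. Dicer1 was -0.45, -0.44 and -0.44 in WT, TAp63-/- and the average, Drosha -1.20, -1.84 and -1.52, Dgcr8 -0.11, -0.13 and -0.12, and Xpo5 -0.21, -0.53 and -0.37. Tarbp2 was -0.87 in WT and -1.31 averaged, Prkra -0.092 in TAp63-/-. In skin by genotype it gave Drosha -0.037 and Xpo5 -0.10, and Dgcr8 -0.012 in the interaction. Other reversals were of differences near 0. Rescaling gave Drosha -0.012 in skin by genotype and Prkra -0.064 in TAp63-/-. Array weights gave Drosha -0.05 and Xpo5 -0.022 in skin by genotype, Drosha 0.067 and Xpo5 0.10 between tumours, Tarbp2 0.034 and Prkra -0.10 in TAp63-/-, and Drosha 0.12, Dgcr8 -0.010, Xpo5 0.14 and Prkra -0.014 in the interaction. The sex covariate gave Xpo5 0.07 between tumours, Dicer1 -0.062 in WT and Xpo5 0.018 in the interaction. The cause of these shifts was not tested.

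Leaving out 1 library gave these ranges where a sign turned. In skin by genotype they were -0.084 to 0.081 for Dicer1, -0.064 to 0.069 for Drosha, -0.041 to 0.17 for Xpo5 and -0.53 to 0.048 for Tarbp2. Between tumours they were -0.94 to 0.64 for Drosha and -0.26 to 0.24 for Xpo5. In WT they were -0.12 to 0.20 for Dicer1 and -0.43 to 1.15 for Drosha. In TAp63-/- they were -0.41 to 0.17 for Tarbp2 and -0.16 to 0.12 for Prkra. Averaged they were -0.12 to 0.67 for Drosha, -0.043 to 0.27 for Tarbp2 and -0.15 to 0.003 for Prkra. In the interaction they were -0.95 to 0.63 for Drosha, -0.059 to 0.34 for Dgcr8, -0.31 to 0.19 for Xpo5 and -0.022 to 0.27 for Prkra. Without WT cSCC replicate 2, Drosha was called in WT (1.15, limma adjusted p = 0.0448).

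The sex covariate could not be fitted in skin, where all libraries are male. No paired analysis was possible because replicate numbers were given in accession order and pair nothing. Unknown depth and 2 WT tumours limit the precision.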
